A study of Mustela putorius furo with 8 samples.

Results

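CF cluster 8 is a group of cells from polarized pancreatic ductal epithelium of ferrets with the genotype CFTR KO/KO. Its members were taken from the deposited cell annotation as every cell with that cluster number. The cluster held 418 cells of 32945 retained cells in the series. Of these, 414 came from the CF library of day 2, where they were 9.20% of 4499 cells (95% exact binomial interval 8.37 to 10.1, counting error only). The CF library of day 5 held 4 of its cells in 2750. None was found in 1607 cells of day 7 or 2489 cells of day 9, which allows shares of up to 0.187% and 0.121% at 3 counts of the total (exact binomial upper bounds 0.229% and 0.148%). All values below are for the 414 cells of day 2 and, as the comparison, the other 4085 CF cells of the same library, unless another group is named.

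The cultures were grown from pancreata of newborn WT and CF ferrets, the latter with the genotype CFTR KO/KO, after 10 passages on 804G-coated plastic, and were sampled on days 2, 5, 7 and 9 at an air-liquid interface (ALI). There were 8 libraries, 1 for each genotype and day. The study pooled cells of 3 donors per genotype, so donors are not replicates here and no group has a replicate. The clusters were compared within 1 library, where no test of a difference was possible, and none was run between libraries. Intervals on levels and ratios are 95% exact Poisson or binomial intervals and cover the counting of unique molecular identifiers (UMIs) only. Levels are CPM, the UMIs of a gene per 1000000 UMIs in the summed cells of a group. The clusters had been formed on the expression of these same cells, so every difference between clusters is a description.

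The pancreatic duct epithelium carries enzymes to the gut and secretes fluid and bicarbonate through CFTR and other channels. Mucous and secretory epithelial cells, in airway, stomach, bladder and bile and pancreatic ducts, share a set of surface genes: membrane mucins such as MUC1, MUC4 and MUC16, tetraspan proteins such as UPK1A and MAL, and secreted defence factors. Basal cells of stratified epithelia carry instead KRT5, TP63 and integrins that anchor them to the basement membrane.

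The 8 libraries held 1607 to 6224 retained cells with medians of 14949 to 23427 UMIs per cell. In the retained cells, 148 of 32796 distinct cell barcodes occurred in more than 1 library, among them 3 of the 414 barcodes of cluster 8 (0.725%) and 37 of the 4085 others (0.906%). CFTR was counted at 2.50, 8.69, 11.1 and 11.4 CPM in the CF libraries of days 2, 5, 7 and 9, and at 6.57, 16.9, 15.9 and 29.5 CPM in the WT libraries. The counts do not say where in the gene the reads lie, so they are no check of the knockout. The genotypes also stood apart as whole libraries: SOX2 had 68.5 to 115 CPM in the WT libraries and at most 0.0864 CPM in the CF libraries, and PDX1 had 3.37 to 5.04 CPM in the CF libraries and at most 0.0121 CPM in the WT libraries. The study described the pooled WT and CF donors by a large difference in PDX1, so that gap is not an independent finding here. Cluster 8 had 0 UMIs of SOX2, 47 UMIs of PDX1 (2.78 CPM, 2.04 to 3.69) and 44 UMIs of CFTR (2.60 CPM, 1.89 to 3.49). Both intervals included the levels of the other CF day 2 cells, 3.49 CPM for PDX1 and 2.48 CPM for CFTR.

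Cluster 8 was the deepest of the 12 CF clusters with at least 50 cells on day 2. Its median was 39320 UMIs per cell, with a 10th percentile of 26960 and a 90th of 54839, against a median of 16737 in the other cells. The next deepest, cluster 9, had a median of 26425. Cluster 8 also had more genes detected, with a median of 5691 against 3906. It made up 9.20% of the cells and 16.5% of the UMIs of its library, and 92 of the 224 deepest cells (41.1%). The median mitochondrial share was 8.86% against 6.91%, and only cluster 9, at 11.7%, was above it. By the deposited cell cycle calls 73.4% of cluster 8 was in G1, 19.8% in S and 6.76% in G2/M, against 58.6%, 27.0% and 14.5% of the others. Depth thus moved with cluster 8, and the named genes are also given against other cells of matched depth. Those were the 962 other CF day 2 cells with 26960 to 54839 UMIs, a comparison chosen after seeing the data, in which the median was 35818 UMIs. Clusters 4, 9 and 22, the most similar to cluster 8, made up 46.4% of those cells and 29.7% of all the other cells, so this comparison changes the mix of clusters as well as the depth.

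**Figure D1:**
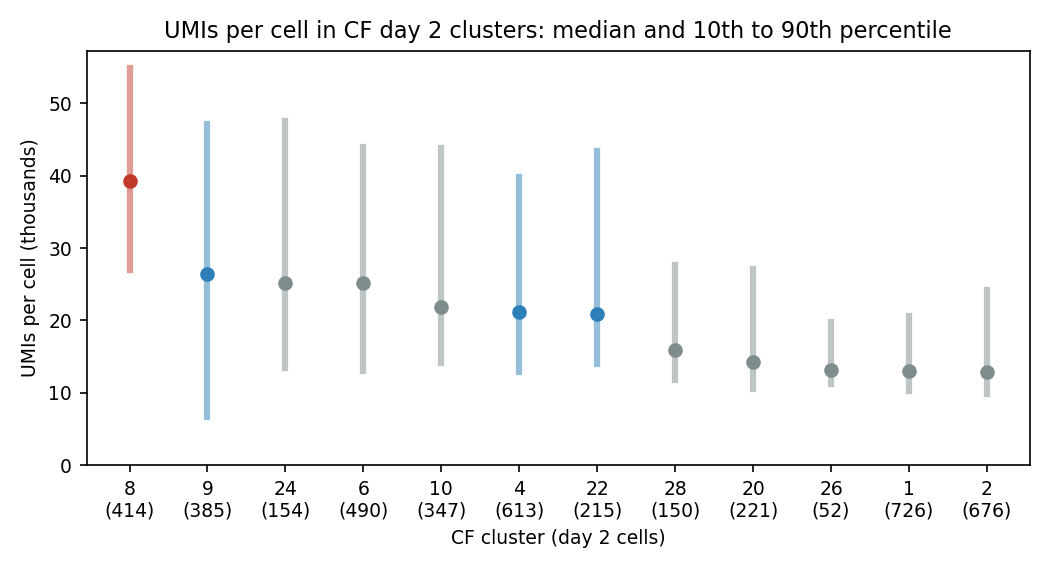
UMIs per cell, in units of 1000, in the 12 CF clusters with at least 50 cells on day 2; points are medians, bars run from the 10th to the 90th percentile, and the number of cells is in brackets. Cluster 8 (red) has the highest median, 39320, and its 10th percentile, 26960, lies above the medians of all the other clusters; blue marks clusters 9, 4 and 22, which are compared with it below.

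The genes that name the cluster, RETNLB, CXCL14, SCGB1A1 and MUC4, were all higher in cluster 8 than in all the other CF day 2 cells, but none was highest there. RETNLB, a secreted resistin-like protein of intestinal goblet cells (protein coding, at 34553061-34554943 of its sequence in the ferret assembly ASM1176430v1.1, where chromosomes are not named), had 943 UMIs or 55.7 CPM (52.2 to 59.4), against 19.5 CPM (18.6 to 20.5). The ratio was 2.86 (2.63 to 3.10), and 2.14 (1.95 to 2.35) at matched depth. CXCL14, a chemokine made by many epithelia (25426201-25434378), had 39.0 CPM (36.1 to 42.1) against 17.8 CPM, a ratio of 2.19 (2.00 to 2.40), and 1.59 (1.44 to 1.76) at matched depth. Its interval overlaps that of SLC25A48 in the annotation, and SLC25A48 itself had 7 UMIs in cluster 8. MUC4, a large membrane mucin (96587559-96611913), had 78.3 CPM (74.2 to 82.7) against 34.8 CPM, a ratio of 2.25 (2.11 to 2.40), and 1.87 (1.74 to 2.02) at matched depth. SCGB1A1, the secretoglobin of airway club cells (8181657-8184897), had 14.5 CPM (12.7 to 16.4) against 9.58 CPM, a ratio of 1.51 (1.31 to 1.75), and 1.53 (1.30 to 1.81) at matched depth. Its direction turned with cells thinned to 3000 UMIs, to a log2 difference of -0.37, and without the deepest cells, as given below. The thinned value rests on 6 cells of cluster 8 with a UMI, and with equal weight per cell the direction was kept.

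By cluster, RETNLB, CXCL14 and MUC4 were highest in the same 4 clusters, 8, 4, 22 and 9, while SCGB1A1 was highest in 4, 9 and 8 and low in 22. For RETNLB, cluster 22 had 61.2 CPM, cluster 4 had 57.6, cluster 8 had 55.7 and cluster 9 had 29.1, and the counting intervals of the 3 highest overlapped. For CXCL14, cluster 4 led with 62.7 CPM, cluster 8 had 39.0, cluster 9 had 32.5 and cluster 22 had 19.4, with no overlap of neighbouring intervals except that 36.1, the lower bound for cluster 8, met 36.2, the upper bound for cluster 9. For MUC4, cluster 4 led with 120 CPM, above cluster 8 at 78.3, cluster 22 at 55.7 and cluster 9 at 48.7, and the intervals of the last pair overlapped. For SCGB1A1, cluster 4 had 39.7 CPM, cluster 9 had 17.1, cluster 8 had 14.5 and cluster 22 had 2.40, and the intervals of clusters 9 and 8 overlapped. Among the remaining 8 clusters the highest values were 8.39 CPM for RETNLB, 7.10 for CXCL14, 2.64 for SCGB1A1 and 14.9 for MUC4, while clusters 1, 2, 26 and 28 stayed at or under 1.67 CPM for each gene. Cluster 8 held 36.1% of the RETNLB UMIs of the library (34.3 to 38.0), 30.8% of those of MUC4, 30.2% of those of CXCL14 and 23.0% of those of SCGB1A1. Cluster 4 held 32.7%, 41.3%, 42.6% and 55.4% of the same genes.

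**Figure D2:**
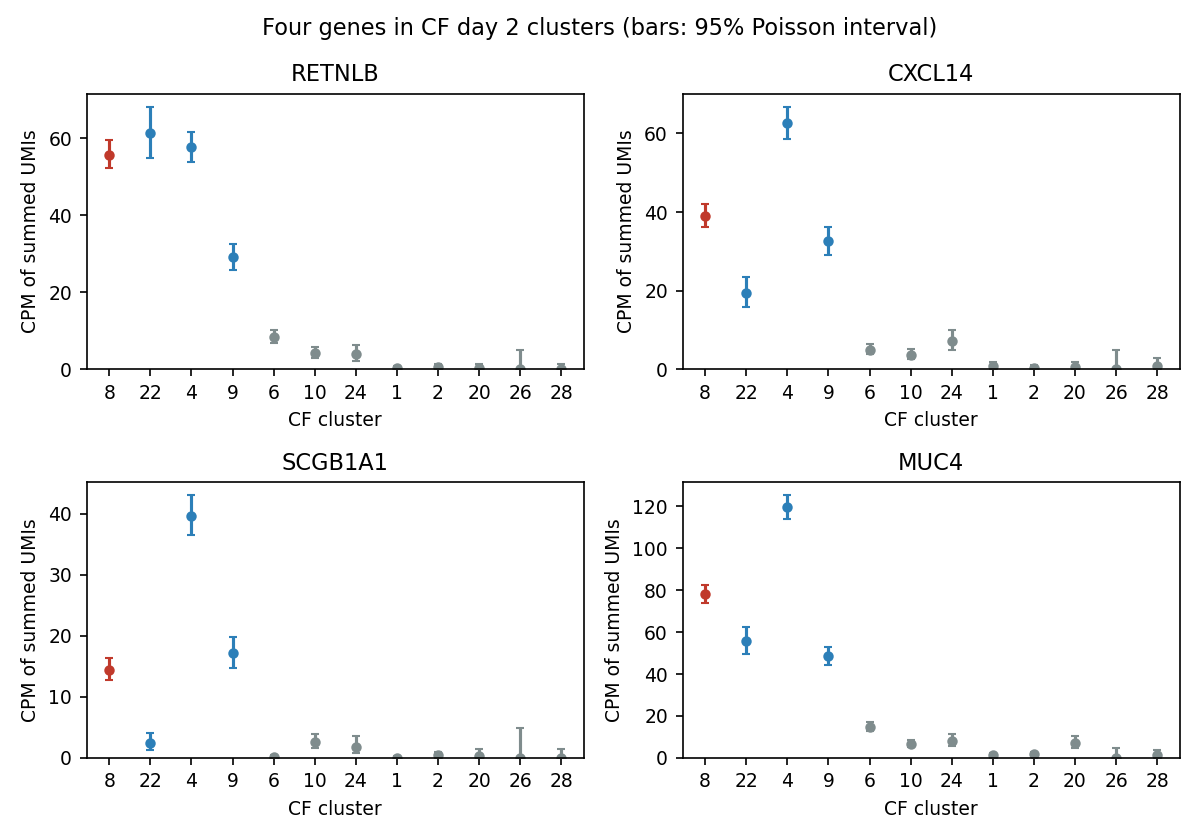
CPM of RETNLB, CXCL14, SCGB1A1 and MUC4 in the summed UMIs of each CF cluster on day 2, with 95% Poisson intervals; each panel has its own linear axis from 0. Cluster 8 (red) stands with clusters 22, 4 and 9 (blue) for RETNLB, CXCL14 and MUC4, cluster 22 is at 2.40 CPM for SCGB1A1, and cluster 4 is above it for CXCL14, SCGB1A1 and MUC4, while the 8 other clusters (grey) are at most 14.9 CPM.

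Because cluster 8 was deep, shares of cells with at least 1 UMI were also taken after thinning every cell to 3000 UMIs, which left out 39 shallower cells, none of cluster 8. RETNLB was then found in 66 of 414 cells of cluster 8 (15.9%, 12.5 to 19.8), in 14.0% of cluster 22, in 12.9% of cluster 4, in 7.75% of cluster 9 and in 3.78% of all other CF day 2 cells. In clusters 1 and 2, where its level was near 0, the shares were 0.139% and 0.296%. Without thinning the share in cluster 8 was 63.0%, above the 36.5% of cluster 4, whose median depth was 21152 UMIs. MUC4 was found in 19.8% of thinned cells of cluster 8, in 29.1% of cluster 4 and in 0.555% of cluster 1, and without thinning in 89.1%, 82.1% and 2.07%. CXCL14 was found in 7.49% of thinned cells of cluster 8 (5.14 to 10.5) and in 9.82% of cluster 4, with overlapping intervals, and in 39.4% and 32.6% before thinning. SCGB1A1 was found in 6 thinned cells of cluster 8 (1.45%, 0.534 to 3.13), against 0.865% (0.603 to 1.20) of the other cells, a difference not detectable at this depth. The order of clusters 8 and 4 for MUC4 and CXCL14 in the unthinned shares was thus not that of their CPM. For RETNLB the CPM intervals of clusters 8 and 4 overlapped. Cluster 8 had the higher RETNLB share before and after thinning, and the thinned intervals overlapped. No order was read from the unthinned shares.

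Within cluster 8 the naming genes were spread in different ways over the cells, as seen after thinning all 414 cells to 10000 UMIs. MUC4 was the most even, with a UMI in 51.0% of cells (46.0 to 55.9) and a Fano factor, the variance over the mean, of 1.24. RETNLB had a UMI in 31.9% (27.4 to 36.6) and a Fano factor of 1.89, and the 41 cells with most RETNLB held 54.9% of its UMIs. CXCL14 had a UMI in 16.9% (13.4 to 20.9), a Fano factor of 2.85 and 79.6% of its UMIs in 41 cells. SCGB1A1 was the most concentrated: 15 cells had a UMI (3.62%, 2.04 to 5.91) and the Fano factor was 5.84. In the unthinned data 388 of the 414 cells had no SCGB1A1 UMI, 1 cell held 48 of the 245 UMIs, and 10 cells held 195 of them (79.6%). The level of SCGB1A1 in cluster 8 was therefore that of a few cells, and without the tenth of cells with the most UMIs its log2 difference from the other cells changed from 0.55 to -0.57.

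The naming genes were found together about as often as the product of their separate shares gives. RETNLB and CXCL14 shared 25 cells, where the product gives 22.3. RETNLB and MUC4 shared 57 cells against 67.3, and CXCL14 and MUC4 shared 38 against 35.7. No cell had all 4 genes at this depth, 13 cells had 3 of them, 94 had 2, 201 had 1 and 106 had none (25.6%). Among genes with a mean of at least 0.5 UMIs per thinned cell, those whose variance went furthest past counting noise, relative to their mean squared, were MUC5AC, DUOXA2, ZFAND2A, CRABP2 and RETNLB. MUC5AC, the gel-forming mucin of airway and stomach surface cells, had a UMI in 26.6% of the cells and a Fano factor of 3.31. DUOXA2, the maturation factor of the hydrogen peroxide-producing dual oxidase DUOX2, had a UMI in 33.3% and a Fano factor of 2.59. Splitting the cluster at its median depth left RETNLB at 55.7 CPM in the shallower 207 cells and 55.8 CPM in the deeper 207. MUC4 had 88.3 CPM (81.1 to 95.8) in the shallower cells and 72.2 CPM (67.2 to 77.6) in the deeper ones, CXCL14 had 32.8 CPM (28.6 to 37.6) and 42.8 CPM (38.9 to 46.9), and SCGB1A1 had 6.38 CPM (4.58 to 8.66) and 19.4 CPM (16.9 to 22.3).

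Across all genes, 7544 had at least 10 CPM in cluster 8 or in the other CF day 2 cells, and the difference was taken as log2 of the CPM plus 1. Of these, 26 genes were at least 2-fold higher in cluster 8 (0.345%) and 166 were at least 2-fold lower (2.2%). A gene could pass the minimum through either group alone, and the list counts below are subject to the same filter. Against cells of matched depth the counts were 8 and 79, which included 8 of the 26 and 62 of the 166. With edgeR's TMM factors, which recentred the differences, they were 50 and 124, so the higher share of the calls depends on the scaling. Without clusters 4, 9 and 22 in the comparison, an alternative added after seeing the data, the counts were 282 and 413 and included all 26 and all 166.

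The symbols with the highest ratios over the other cells, beside RETNLB and MUC4, were the following. ENPP3, an ectonucleotidase of apical membranes, had the largest ratio among symbols of at least 50 CPM, 3.26 (2.99 to 3.56), with 50.7 CPM against 15.5 CPM, and 2.80 (2.53 to 3.11) at matched depth. MUC1, the main membrane mucin of ducts, had 1499 CPM against 713 CPM (ratio 2.10). MUC16 had 191 against 94.3 CPM (2.03), and MUC5AC had 55.4 against 26.6 CPM (2.08). Of the surface proteins, LYPD2 of the Ly6 family had 166 against 70.0 CPM (2.37), the uroplakin UPK1A had 58.7 against 27.8 CPM (2.11), PSCA, a GPI-anchored antigen of stomach, bladder and prostate epithelium, had 695 against 352 CPM (1.97), and MAL, which sorts proteins to the apical membrane, had 235 against 123 CPM (1.92). SCNN1A, the alpha subunit of the epithelial sodium channel, had 194 CPM against 95.8 CPM, a ratio of 2.02 (1.94 to 2.11).

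CXCL17, a mucosal chemokine, had 373 CPM against 174 CPM (2.14, 2.08 to 2.21). TXN, the thioredoxin that reduces protein disulfides, was at 4803 CPM against 2305 CPM (2.08, 2.07 to 2.10), and GLRX, a glutaredoxin, had 65.2 against 33.0 CPM (1.98). CAPN5, a calpain protease, had 72.2 against 37.6 CPM (1.92), and CUNH15orf48, named after a human open reading frame, had 68.7 against 29.8 CPM (2.31). Of genes without a symbol, LOC101676065 (protein coding) had 58.5 CPM against 20.2, the lncRNA LOC101679224 had 1398 CPM against 582, and LOC101686708, a protein-coding gene next to MUC4 on the same sequence that does not overlap it, had 58.7 CPM against 27.9. At matched depth the ratios of the 14 symbols of this group beyond RETNLB and MUC4 ran from 1.58 for CAPN5 to 2.80 for ENPP3. With cells of all 4 days as the comparison, LYPD2 (-0.07) and UPK1A (-1.40) had negative log2 differences.

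Among the 26 genes none had its highest level in cluster 8. Cluster 4, deposited as centroacinar progenitor, was highest for 24 of them, cluster 22 for RETNLB and cluster 9 for CREB3L1, a secretory transcription factor. For 25 of the 26 (96.2%), the level in cluster 8 lay between cluster 4 and the cells outside clusters 4, 8, 9 and 22, against 49.0% of all 7544 genes tested, but the lower side of this range is largely fixed by how the 26 were chosen. For MUC1 the levels were 2048 CPM in cluster 4, 1499 in cluster 8, 1101 in cluster 22, 1037 in cluster 9 and 66.4 to 462 CPM in the others. Over all genes tested, 91 had their highest CPM in cluster 8 (1.21%), and none was even 1.5-fold above every other cluster. The furthest above at 50 CPM or more, chosen after its values were seen, was ABRACL, with 196 CPM against 178 CPM in cluster 4.

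**Figure D3:**
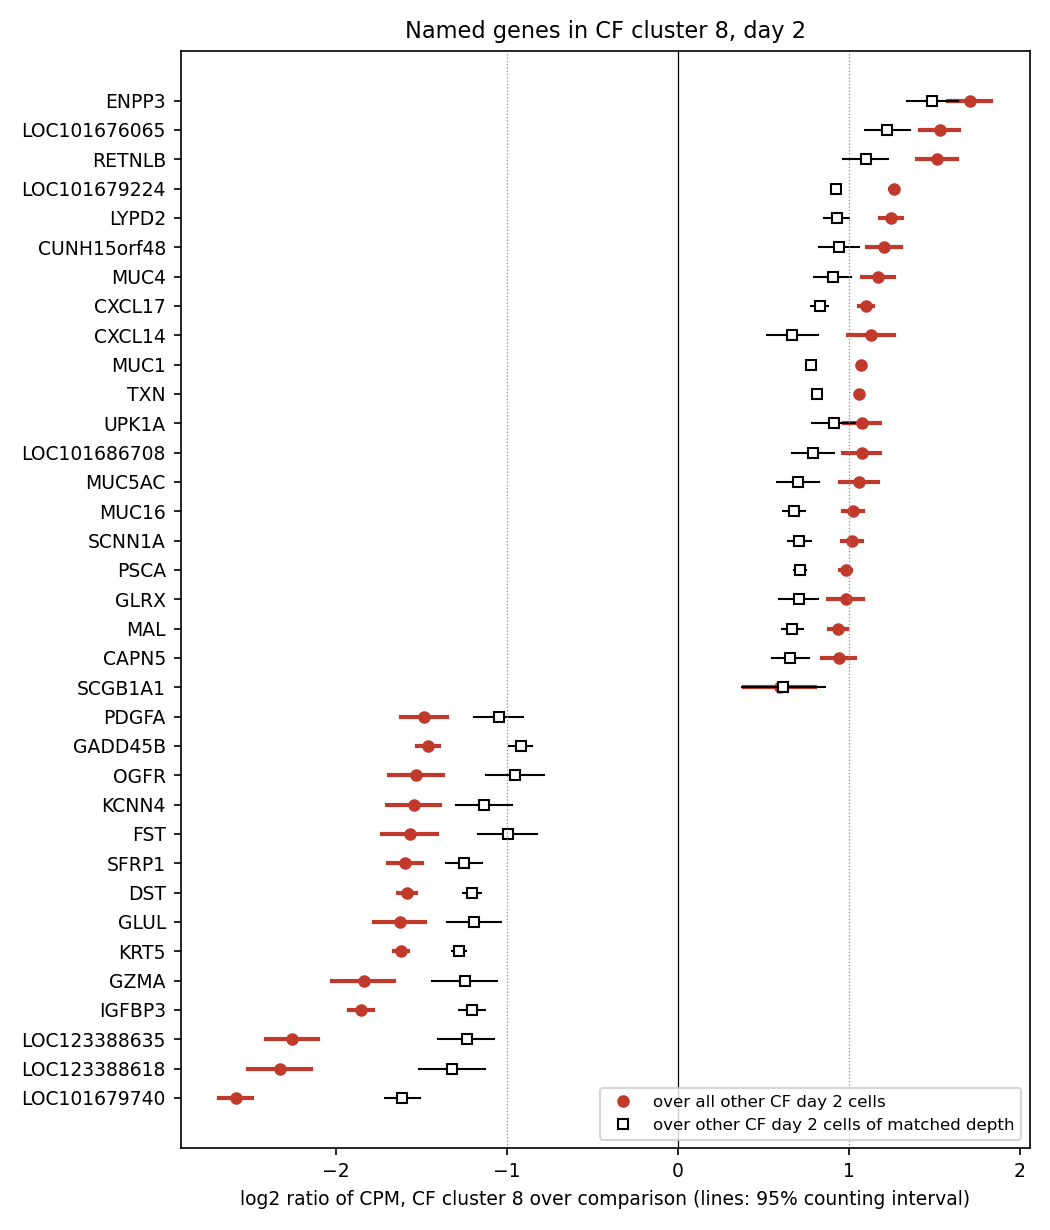
Log2 ratio of CPM in CF cluster 8 for the named genes, over all other CF day 2 cells (red) and over the 962 other cells of matched depth (open squares), with 95% counting intervals; dotted lines mark 2-fold. Each of the other named genes lies nearer to 0 at matched depth and keeps its direction, and SCGB1A1 is about equal in both comparisons.

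KRT5, the basal keratin, had 325 CPM in cluster 8 against 999 CPM, a ratio of 0.325 (0.316 to 0.334), and 0.412 at matched depth. By cluster, KRT5 had 78.1 CPM in cluster 4, 325 in cluster 8, 326 in cluster 22 and 512 in cluster 9, below the 921 to 2175 CPM of the other 8. DST, which ties keratin filaments to hemidesmosomes, had 196 against 587 CPM (0.333). IGFBP3, a carrier of insulin-like growth factors, had 102 against 370 CPM (0.277), and SFRP1, a secreted WNT antagonist, had 53.3 against 161 CPM (0.331). FST, the activin antagonist follistatin, had 19.9 against 59.0 CPM (0.338), and PDGFA, a platelet-derived growth factor, had 28.8 against 80.8 CPM (0.357).

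GLUL, glutamine synthetase, had 23.7 CPM against 73.2 CPM (0.324), and KCNN4, a calcium-activated potassium channel, had 21.6 against 62.9 CPM (0.343). OGFR, the opioid growth factor receptor, had 21.0 against 60.6 CPM (0.346), and GADD45B, a stress-response gene, had 131 against 361 CPM (0.363). GZMA, a granzyme known from cytotoxic lymphocytes, had 15.9 against 56.9 CPM (0.280). Of 9 immune genes 5 had 0 UMIs in cluster 8, among them PTPRC and CD3E, which define leukocytes and T cells. The rest were counted, CD68 with 460 UMIs, HCST with 241, CD14 with 67 and CD3D with 1. LOC101679740 (protein coding) had the lowest ratio in the plot of named genes, with 53.9 CPM against 324 CPM (0.166, 0.156 to 0.178). LOC123388618 and LOC123388635, annotated as ribosomal RNA, had 15.3 against 76.5 CPM and 21.99 against 105 CPM, and only cluster 9 was lower, at 8.37 and 11.5 CPM. Both moved with depth inside cluster 8. LOC123388618 had 22.1 CPM (18.6 to 26.1) in the shallower 207 cells and 11.1 CPM (9.14 to 13.3) in the deeper 207. LOC123388635 had 33.0 CPM (28.7 to 37.8) and 15.2 CPM (13.0 to 17.8). At matched depth the named lower genes had ratios from 0.327 to 0.529.

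Of the 166 lower genes, cluster 8 was above cluster 4 for 122 (73.5%), above cluster 22 for 59 (35.5%) and above cluster 9 for 57 (34.3%). Over all genes tested these shares were 27.996%, 38.7% and 62.3%. It was the lowest of the 12 clusters for 6.

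The deposited name of the cluster, ductal, was checked against the genes the study used for its classes. Of 6 genes of the ductal class, 0 were at least 2-fold higher and 2 were lower, with a median log2 difference of -0.78 (over all 7544 genes, -0.09). Of all 7544 genes, 0.345% were at least 2-fold higher and 2.2% lower. KRT15, which passed the minimum only through the other cells, had 5.67 against 19.8 CPM. KRT5 was given above, CAPG had 255 against 447 CPM and KRT19 had 3241 against 5484 CPM. Their sum, 7814 CPM, was the next to lowest of the 12 clusters. Of 8 tested genes of the centroacinar progenitor class, 4 were at least 2-fold higher and 0 lower, with a median of 0.80. Those 4 were MUC4, MUC1, MUC5AC and MUC16, and at matched depth all were under 2-fold, with ratios of 1.87, 1.71, 1.63 and 1.60. The list summed to 2365 CPM against 1266, second to cluster 4. MUC4 also belongs to the genes that name cluster 8, so that list is not independent of the choice. Of 3 tested centroacinar class genes none was past 2-fold (median -0.26), though S100A6, a small calcium-binding protein, had 33575 CPM against 21000. General duct keratins were still abundant, with 1834 CPM of KRT7 and 1322 CPM of KRT8 against 2192 and 1105 CPM. These lists thus went partly against the name, while the whole profile was most like that of cluster 22, also deposited as ductal, as given below. The cluster is called by its number here.

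Of the marker lists of other cell types, some defining genes had no UMI in cluster 8 and others were counted. Of 10 ciliated cell genes 7 had no UMI, among them FOXJ1, and all 10 summed to 3 UMIs. Of 7 endothelial genes 6 had none, PECAM1 and CDH5 among them. Of 12 endocrine genes 10 had none, including INS, GCG, SST and CHGA, while ISL1 had 27.6 CPM, as in the other cells at 26.7. Of 13 fibroblast and stellate cell genes 6 had none, including COL1A1, COL3A1 and PDGFRB, 7 had 1 to 139 UMIs, with VIM highest at 8.22 CPM against 16.1, and the list summed to 11.9 against 41.4 CPM. Of 7 ionocyte and tuft cell genes 5 had none, FOXI1, ASCL3 and TRPM5 among them, but ATP6V1B1, a proton pump subunit, had 70 UMIs, and the list summed to 4.20 against 2.04 CPM. Of 9 immune genes 5 had none, and CD68 and HCST had 27.2 and 14.2 CPM against 19.7 and 9.44. The immune list summed to 45.5 against 32.4 CPM. Of 8 acinar cell genes in the matrix, among them transcription factors such as PTF1A, 5 had none, CPB1 and PTF1A included. CLPS made nearly all of the rest with 13.9 CPM against 19.2.

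In the secretory lists some members were at least 2-fold higher than in the other CF day 2 cells, where 0.345% of all genes tested were. The naming genes MUC4, RETNLB, CXCL14 and SCGB1A1 are members of these lists, so their counts are not independent of the choice of the cluster. At matched depth CXCL17, CXCL14, MUC5AC and UPK1A were under 2-fold, in that order at 1.78, 1.59, 1.63 and 1.88. All 3 tested membrane mucins, MUC1, MUC4 and MUC16, were at least 2-fold higher (median 1.07), but none was at matched depth, where the ratios were 1.71, 1.87 and 1.60. The whole list summed to 1781 CPM, between the 2478 CPM of cluster 4 and the 1311 CPM of cluster 22. Of 5 tested goblet cell genes 2 were higher: CREB3L1, at 12.2 against 5.42 CPM, and MUC5AC. AGR2, a disulfide isomerase needed for mucin folding, had 131 against 77.8 CPM, and GALNT6, a mucin glycosyltransferase, had 38.6 against 31.5 CPM. Of 4 tested airway-type secretory genes 2 were higher, CXCL17 and the protease inhibitor PI3, at 14.2 against 4.26 CPM. PI3 and CREB3L1 passed the minimum of 10 CPM only through cluster 8, so their calls are not independent of that filter. RETNLB was the 1 tested gene of the resistin-like and intestinal goblet list. Of 7 tested chemokines and cytokines CXCL17 and CXCL14 were higher, while CX3CL1 had 192 against 125 CPM and IL18 had 6.62 against 10.8 CPM. Of 8 umbrella and gastric surface genes UPK1A and MUC5AC were higher, and UPK3A had 10.3 against 7.76 CPM. Of 4 dual oxidase genes DUOX2 was higher, with 41.1 against 16.5 CPM, and DUOXA2 had 57.6 against 32.7 CPM, whereas DUOX1 had 65.8 against 74.9 CPM and DUOXA1 had 16.1 against 21.4 CPM.

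Of 10 interferon-stimulated genes only MX2 was past 2-fold, with 45.0 against 21.0 CPM, and the list's median was 0.22. Of all genes tested, 0.345% were at least 2-fold higher and 2.2% lower. At matched depth 8 of the 26 higher genes stayed past 2-fold, and MX2 is not given there. ISG20 had 337 against 196 CPM, USP18 had 17.1 against 11.5 CPM and IFI6 had 1452 against 1008 CPM. Their summed level, 2040 CPM, was second to cluster 4 at 4122 CPM, with the other 10 clusters between 677 and 1102 CPM. Of 6 xenobiotic and aldehyde enzymes TXN was higher (1.75 at matched depth), GSTP1 had 878 against 656 CPM, ALDH1A1 had 138 against 110 CPM and GPX2 had 260 against 441 CPM. Of 10 transport genes SCNN1A was higher (1.63 at matched depth) and KCNN4 lower, CLCA2 had 23.1 against 42.6 CPM and AQP3, a water and glycerol channel, had 476 against 714 CPM. Of 13 junction genes none was past 2-fold, with OCLN at 98.6 against 61.5 CPM and CDH3, the cadherin of basal cells, at 14.8 against 28.5 CPM. Of 8 NF-kB response genes none was past 2-fold (median -0.19), and NFKBIA had 755 against 1208 CPM.

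The basal lists lay the other way. Over all genes tested 2.2% were at least 2-fold lower and the median log2 difference was -0.09. Against cells of matched depth 62 of all 166 lower genes stayed past 2-fold. Of the genes named in this paragraph only KRT5 is given at matched depth, with a ratio of 0.412. Of 13 tested basal cell genes 7 were at least 2-fold lower and 0 higher (median -1.13), including TP63, which specifies basal cells, at 29.1 against 80.5 CPM. The list summed to 1304 CPM, against 679 in cluster 4, 1454 in cluster 22, 1733 in cluster 9 and 2902 to 6253 CPM in the other 8 clusters. Of 3 tested basal and stratified keratins KRT5 and KRT15 were lower, while KRT4, of non-keratinizing stratified epithelia, had 61.9 against 47.7 CPM. KRT15 passed the minimum of 10 CPM only through the other cells. Of 8 Notch pathway genes 4 were lower (median -0.89): LFNG, a glycosyltransferase that modifies Notch, at 13.2 against 42.2 CPM, the ligands JAG2 at 13.1 against 40.2 CPM and DLL1 at 29.5 against 71.9 CPM, and the target HES1 at 250 against 520 CPM. The receptor NOTCH2 had 74.4 against 48.4 CPM. Of 17 epithelial transcription factors TP63 alone was lower, with SOX4 at 262 against 496 CPM, CEBPB at 17.4 against 34.6 CPM and GRHL3, a factor of barrier epithelia, at 50.1 against 28.2 CPM.

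Of 10 tested proliferation genes 9 were lower in cluster 8 (median -1.63), with TOP2A at 2.72 against 24.9 CPM, CENPF at 3.84 against 40.1 CPM and MKI67 at 1.60 against 14.2 CPM. TOP2A, CENPF and MKI67 passed the minimum of 10 CPM only through the other cells, so their calls are not independent of that filter. The list summed to 62.0 CPM in cluster 8, the highest of 9 clusters between 29.9 and 62.0 CPM, and to 250, 298 and 2816 CPM in clusters 9, 10 and 24. With cluster 24 left out of the comparison, 20 of all genes were at least 2-fold higher and 141 lower. Of 11 DNA replication genes 3 were lower (median -0.73), with RRM2 at 20.8 against 50.5 CPM and MCM7 at 10.2 against 22.1 CPM. The share lower among all genes tested was 2.2%. The replication list summed to 215 CPM in cluster 8, above the 151 to 208 CPM of clusters 1, 2, 4, 6, 20 and 22. Clusters 28, 26 and 9 had 218, 226 and 313 CPM, and clusters 10 and 24 had 1152 and 1385 CPM. By this sum cluster 8 was not among the lowest clusters.

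Of all genes tested, 0.345% were at least 2-fold higher and 2.2% lower. At matched depth 62 of the 166 lower genes stayed past 2-fold, and the genes of this paragraph are not given there. Of 13 immediate early genes only JUNB was past 2-fold, at 216 against 517 CPM, with JUN at 225 against 441 CPM and a median of -0.35. Of 16 glycolysis and hypoxia genes VEGFA was lower, at 55.7 against 120 CPM, with LDHA at 416 against 650 CPM and a median of -0.31. None of 14 ER folding and stress genes was past 2-fold (median -0.41), and the chaperone HSPA5 had 165 against 292 CPM. Of 9 matrix and wound genes 1 was at least 2-fold lower and 0 higher (median -0.73). Under 2-fold, the collagenase MMP13 had 90.1 against 179 CPM and MMP7 had 270 against 163 CPM. Of 8 progenitor transcription factors HES1 alone was lower, with NR5A2 at 72.8 against 51.6 CPM and PAX6 at 99.5 against 80.9 CPM. No pancreatic duct, retinoid, squamous or acinar class gene was past 2-fold, of 11, 7, 4 and 7 tested, with medians of -0.08, 0.05, -0.02 and -0.52. The 13 mitochondrial transcripts, none past 2-fold, summed to 85136 CPM against 76183 CPM, second to cluster 9.

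**Figure D4:**
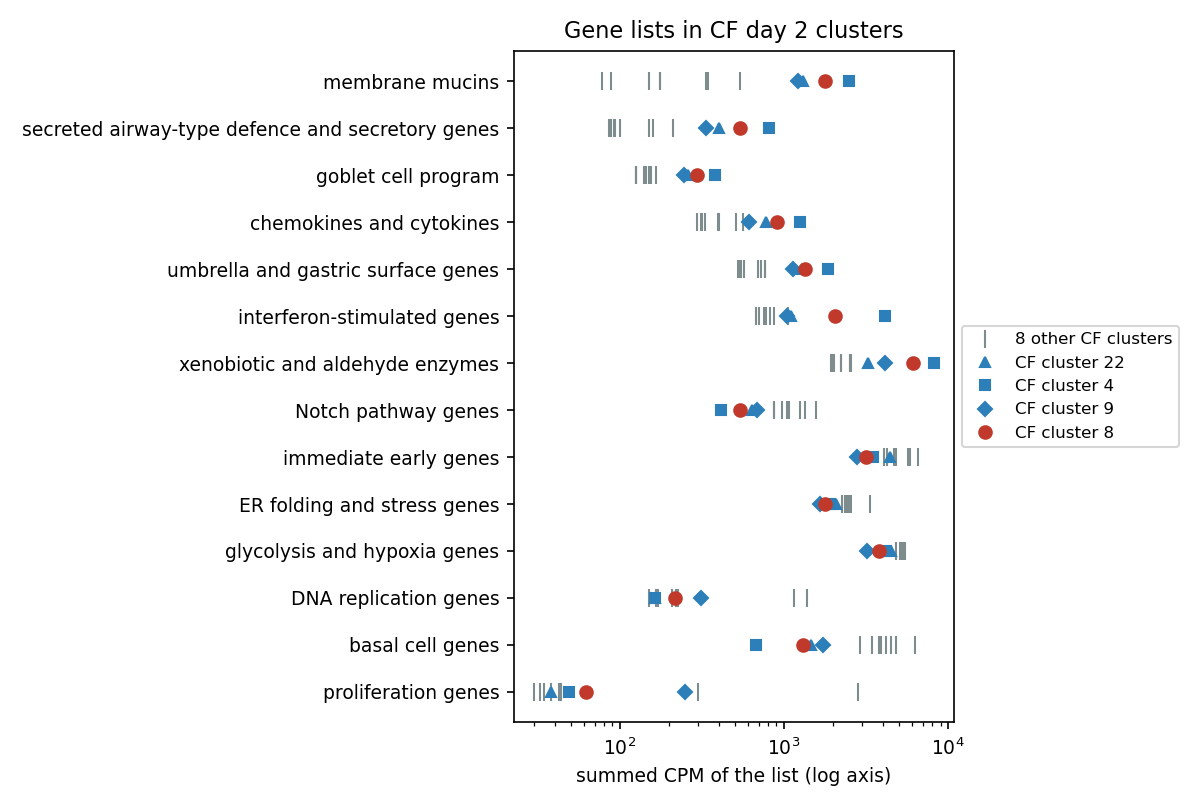
Summed CPM of 14 gene lists in each CF cluster on day 2, on a log axis. Cluster 8 (red circle) lies next to cluster 4 (blue square) above the 8 other clusters (grey ticks) for membrane mucins, at 1781 and 2478 CPM, and below them for basal cell genes, at 1304 and 679 CPM, with clusters 22 (triangle) and 9 (diamond) near it.

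Over 8639 genes with at least 10 CPM in any of the 12 clusters, the log2 profile of cluster 8 was most like that of cluster 22 (Pearson's r = 0.984 across genes), then cluster 4 (0.978), cluster 9 (0.976) and cluster 6 (0.967). The other 7 ranged from 0.890 for cluster 24 to 0.931 for cluster 10. The CF profiles share 1 library and differ in depth, so the values are a description. The nearest WT cluster was cluster 33 of day 2, deposited as ductal, at 0.954, and the next was cluster 30 of day 7 at 0.951. That WT cluster 33 had 7.78 CPM of RETNLB, 4.82 of CXCL14, 9.64 of MUC4 and 0.371 of SCGB1A1.

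Against cluster 22, deposited as ductal too, 7412 genes were compared, and 32 were at least 2-fold higher in cluster 8 (0.432%) and 20 lower (0.27%). Among symbols of at least 50 CPM in either cluster, MMP7, a matrix metalloproteinase of ducts, had 270 CPM in cluster 8 and 49.2 CPM in cluster 22, a ratio of 5.49 (4.85 to 6.23). MAL was next with a ratio of 4.26 (3.78 to 4.80), then UPK1A at 2.82, DUOXA2 at 2.72 and TXN at 2.48. Genes lower in cluster 8 included NOP53, a nucleolar protein, with 110 against 220.2 CPM, a ratio of 0.499, and ALCAM (0.520), RUNX1 (0.531) and AQP3 (0.534). By log2 of CPM plus 1 none of these was past 2-fold, so they are not among the 20. RETNLB did not separate these clusters, with a ratio of 0.911 (0.803 to 1.04), while SCGB1A1 had 245 UMIs in cluster 8 and 13 in cluster 22, a ratio of 6.04 (3.47 to 11.5). That ratio was carried by few cells, 10 of which held 195 of the 245 UMIs, and the shares of thinned cells, 1.45% (0.534 to 3.13) and 0.467% (0.0118 to 2.58), overlapped.

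Against cluster 4, deposited as centroacinar progenitor, 7499 genes were compared, and 56 were higher in cluster 8 (0.747%) and 69 lower (0.92%). Among symbols of at least 50 CPM in either cluster, KRT5 had 325 CPM in cluster 8 and 78.1 CPM in cluster 4, a ratio of 4.16 (3.90 to 4.44). The others furthest in this direction were PMEPA1, an inhibitor of TGF-beta signalling, at 4.18, SFRP1 at 3.89, S100A2 at 2.88 and the collagenase MMP13 at 2.76. Of the lower ones, the interferon-stimulated gene IFIT3 had 14.3 CPM against 61.2 CPM, a ratio of 0.234 (0.202 to 0.269), and ISG15, another, had 47.1 against 161 CPM (0.292). MMP7 (0.350), VSIG2 (0.383) and WSB1 (0.389) followed. Among cells of matched depth, 197 of cluster 4, the levels there were 110 CPM of KRT5 and 648 CPM of MMP7, so cluster 8 stayed on the same side of both.

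Against cluster 9, deposited as ductal, 7249 genes were compared, and 96 were higher in cluster 8 (1.32%) and 22 lower (0.303%). CDC42EP5, an effector of the GTPase CDC42, had 75.1 CPM against 26.4 CPM, a ratio of 2.85 (2.50 to 3.26), then SYT8 at 2.71, VSIG2 at 2.50, CITED4 at 2.48 and the sulfurtransferase MPST at 2.45. In the other direction HMGB2, a chromatin protein of dividing cells, had 51.4 against 99.8 CPM (0.515), the nucleoside transporter SLC29A1 had 29.0 against 56.8 CPM (0.511), and RPL37A (0.580), TUBB (0.582) and PRSS23 (0.584) followed. Cluster 9 had 39.2% of its cells called in G2/M and cluster 8 had 6.76%. RETNLB was 1.92-fold higher in cluster 8 (1.68 to 2.19), and SCGB1A1 had a ratio of 0.846 (0.694 to 1.03).

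Across the libraries the naming genes did not follow the presence of cluster 8 in the same way. RETNLB had 25.5 CPM in the CF library of day 2, then 11.7, 3.63 and 1.78 CPM on days 5, 7 and 9, and 1.24 to 2.37 CPM in the WT libraries. After day 2 its highest CF value was 35.7 CPM in cluster 17 of day 5, deposited as centroacinar progenitor, so the gene was still counted where cluster 8 was nearly absent. In WT clusters of at least 50 cells it reached at most 12.8 CPM. CXCL14 had 21.3 CPM on day 2 in CF and 5.25, 9.33 and 10.3 CPM later, against at most 0.751 CPM in any WT library and at most 7.44 CPM in any such WT cluster. SCGB1A1 had 10.4 CPM on day 2 in CF and at most 0.979 CPM in the later CF libraries, though 16.05 CPM in cluster 17 of day 7. In the WT libraries SCGB1A1 had 9.96 to 12.6 CPM, with 76.2 CPM in WT cluster 13 of day 2. Its highest WT cluster value was 89.4 CPM, in WT cluster 21 of day 5. MUC4 had 42.0, 28.8, 16.6 and 9.80 CPM on days 2, 5, 7 and 9 in CF, and 21.4, 52.7, 77.8 and 103 CPM in WT, where cluster 16 of day 7 reached 525 CPM. On day 2 RETNLB, CXCL14 and MUC4 were thus higher in the CF library and SCGB1A1 in the WT library, with 1 library a genotype. Later MUC4 was higher in WT and CXCL14 in CF.

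**Figure D5:**
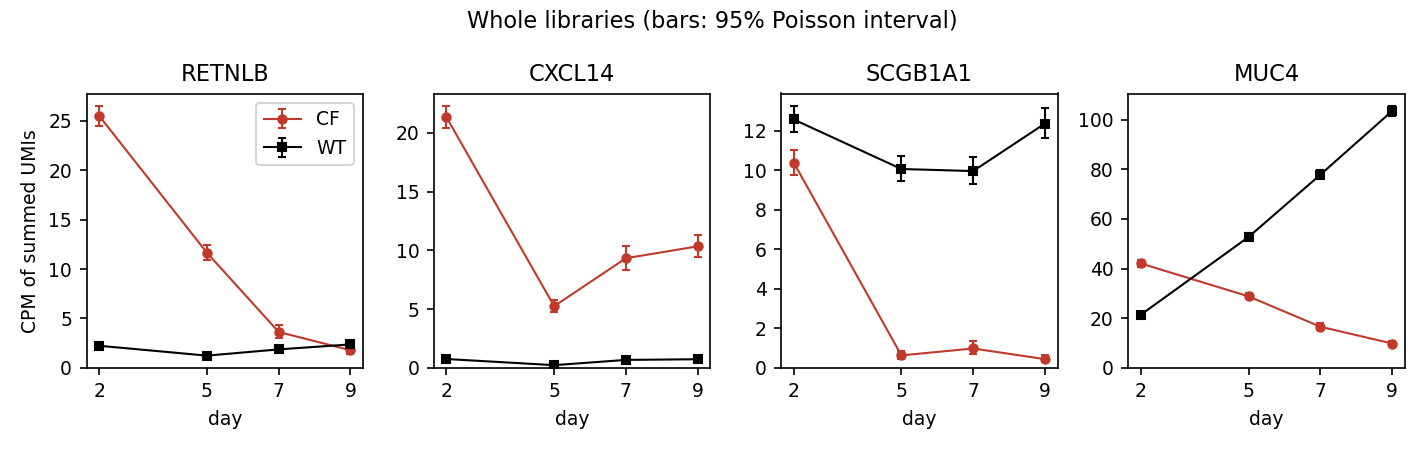
CPM of the 4 naming genes in the summed UMIs of each whole library by day at ALI, CF in red and WT in black, with 95% Poisson intervals that cover counting only; each point is 1 library and each panel has its own linear axis from 0. RETNLB and CXCL14 are highest in CF on day 2, at 25.5 and 21.3 CPM, while MUC4 ends at 9.80 CPM in CF and 103 CPM in WT.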

How the data were processed

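Single-cell libraries were made with 10x Genomics chemistry from WT and CF (CFTR KO/KO) ferret cultures. The authors ran Cell Ranger 5.0.1 on the assembly ASM1176430v1.1 with an improved annotation and deposited raw UMI counts per gene and cell, with per-cell totals as counts and the mitochondrial share as a percent. Per the study's methods, cells needed 200 genes or more and no more than 20% of reads from mitochondria (R 4.1.2, Seurat), doublets were removed with DoubletFinder, and the authors merged libraries without batch correction, clustered WT and CF cells separately and named clusters by reference correlation and marker genes. Those clusters and names were used as deposited. No doublet caller was run here.

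From the counts, UMIs were summed over the cells of a group and scaled to CPM (Python 3.11.15, scipy 1.17.1). Differences are log2 of CPM plus 1, among genes of at least 10 CPM in either sum. Ratios carry exact conditional binomial intervals, shares exact Clopper-Pearson intervals. With 1 library a group no test was run. The functions were tested on simulated data. Genes named in the text are the 4 naming genes, the 16 symbols with the highest ratio (at least 50 CPM in cluster 8), the 12 with the lowest (at least 50 CPM in the others), the 3 highest and lowest LOC genes, up to 4 list members furthest from 0, with a few more from the study's class lists given for context, CFTR, PDX1 and SOX2, and 5 symbols each way, ordered by log2 difference and with at least 50 CPM in the higher of the pair, against each of the 3 most similar clusters. A few results that these rules select are not reported here. The members and gene lists were chosen with earlier results of these data known. Alternatives were another pseudocount, filters of 1 and 50 CPM, TMM factors (edgeR 4.0.16) and DESeq2 1.42.0 size factors, equal cell weights, thinning, other comparison cells, all days, cells of matched depth and a comparison without the 3 most similar clusters, the last pair added after the data were seen. Gene positions come from the RefSeq annotation of the same assembly. Libraries held 34735952 to 114585136 UMIs in retained cells.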

Additional observations from a re-analysis of the deposited data

Results flagged for a closer look

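Barcodes in the deposited matrices that the authors' annotation does not retain were not used in any comparison, and they also held the naming genes. In the CF library of day 2 there were 966 such barcodes with 12129410 UMIs and a median of 2509 per barcode. RETNLB had 29.6 CPM in them (26.6 to 32.8), against 3.32 CPM in 729 such barcodes of the WT library of day 2, whose median was 5719 UMIs. CXCL14 had 27.8 CPM against 1.30 CPM, and MUC4 had 45.4 CPM against 32.9 CPM. These signals drew attention as values above the control library in data outside the main measurement. SCGB1A1 had 6.10 CPM against 19.9 CPM. The retained cells of the same CF and WT libraries had the same directions, so these barcodes repeat the order of the whole libraries. RETNLB had 25.5 and 2.23 CPM there, CXCL14 had 21.3 and 0.751, MUC4 had 42.0 and 21.4, and SCGB1A1 had 10.4 and 12.6.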

How the results depend on the processing

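The number of genes at least 2-fold higher in cluster 8, 26 as reported, was 13 with a pseudocount of 5 CPM, 15 with a minimum of 50 CPM, 50 with TMM factors, 51 with DESeq2 size factors, 69 with equal weight per cell, 114 with cells thinned to 3000 UMIs, 92 against other ductal cells only, 111 with the other clusters weighted equally and 51 with cells of all 4 days. The number lower, 166 as reported, was 98, 48, 124, 120, 248, 424, 148, 259 and 404 under the same settings, and 301 with a minimum of 1 CPM, where 36 were higher. A further pair of comparisons was chosen after seeing the data: against cells of matched depth, which also hold more cells of the 3 most similar clusters, the counts were 8 and 79, and without the 3 most similar clusters 282 and 413. Without the 10% deepest cells of cluster 8 they were 31 and 188.

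The direction of 36 named genes was the same under every alternative run on them, with these exceptions: SCGB1A1 had -0.37 after thinning and -0.57 without the deepest cells, and with cells of all 4 days LYPD2 had -0.072 and UPK1A -1.40. The cause was not tested. Cluster 22 stayed the most similar cluster with Spearman's correlation and with a minimum of 50 CPM, and the share of cluster 8 was 9.28% among cells of at least 3000 UMIs. No paired analysis was possible because the cluster comparisons lie within 1 library and come from no test. SCGB1A1 rests on 245 UMIs in cluster 8, of which 10 cells held 195.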
